A study of Mus musculus with 7 samples.

Results

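Chemokines are small secreted proteins that draw leukocytes and progenitor cells towards their source, and they act through receptors coupled to G proteins. CXC chemokines carry a residue between their first pair of cysteines and CC chemokines carry none. Brown fat, the tissue that burns lipid for heat, holds adipocytes beside fibroblasts, vessels, mural cells and resident immune cells, and any of these can contribute chemokine RNA. Described here are 9 genes: the CXC ligands Cxcl1, Cxcl10, Cxcl12 and Cxcl14, the CC ligands Ccl2, Ccl6, Ccl9 and Ccl11, and the receptor Cxcr4. All 16 probe sets that the probe table pairs with these genes alone were taken, out of 45037 probe sets on the array, and 13 of them passed a filter on low signal. The genes were chosen by their KO and wild-type signals on these same arrays. Their own differences between the genotypes, and whether these passed a threshold, are therefore a description and not a test of a prior question.

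The samples were total RNA of brown fat from 3-day-old male C57BL/6J mice, 4 with a knockout (KO) of Gyk (replicates 1 to 4) and 3 wild type as the control (replicates 1, 3 and 4), with 1 array each. Gyk encodes glycerol kinase, which makes glycerol 3-phosphate from glycerol. The labels name no other allele or treatment and do not say how the KO allele was made, whether animals were pooled, or whether the replicates were separate animals, so errors and p-values cover the spread between these samples only. For KO replicate 1 the title alone gives the genotype. With 4 and 3 arrays a group, precision is limited throughout.

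Values are signal intensities as deposited, and the medians of the arrays differed by at most 1.171-fold. The targeted gene is not analysed here, as the probe table pairs no probe set with it alone, so genotypes rest on the labels. The array labelled KO replicate 2 stood apart from the other KO arrays. Its score on the first principal component was -13.8, where the remaining KO arrays had 33.4 to 35.7 and the wild-type arrays -33.3 to -23. It correlated best (0.975) with wild-type replicate 1. On 1436936_s_at, Xist, which is transcribed from an inactive X, read 2757 on this array and no more than 272.7 elsewhere, while all samples carry the label male. The Y-linked Eif2s3y (1417210_at) read 1251.5 on it and 1210.0 to 1565.8 on the others, so Y signal was present. Kdm5d (1424903_at) read 325.1 against 386.4 to 471.1, and Uty (1426598_at) 475.3 against 697.3 to 854.0. The second component set KO replicates 1 and 2 and wild-type replicate 1 (21.8 to 24.5) apart from the rest (-23.6 to -12.5). The same split is seen in the range of the sample accessions, and the 2 sets are called the first and second deposit block here. All 10 measured brown adipocyte markers, among them Ucp1 and Adipoq, were above background. In bulk tissue, fewer cells of a type and less RNA per cell cannot be told apart.

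Without detection calls, a background level was taken from 78 probe sets of olfactory and vomeronasal receptors, genes of smell. The 95th percentile of their signals was 228 on the KO arrays and 207 on the wild-type arrays. Against this level, 8 of the 16 chemokine probe sets were above background in both genotypes, 5 were near background in both, 2 were near background in KO only and 1 was near background in wild type only. A probe set's level cannot be set against that of another, so the genes are not ranked by abundance.

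**Figure D1:**
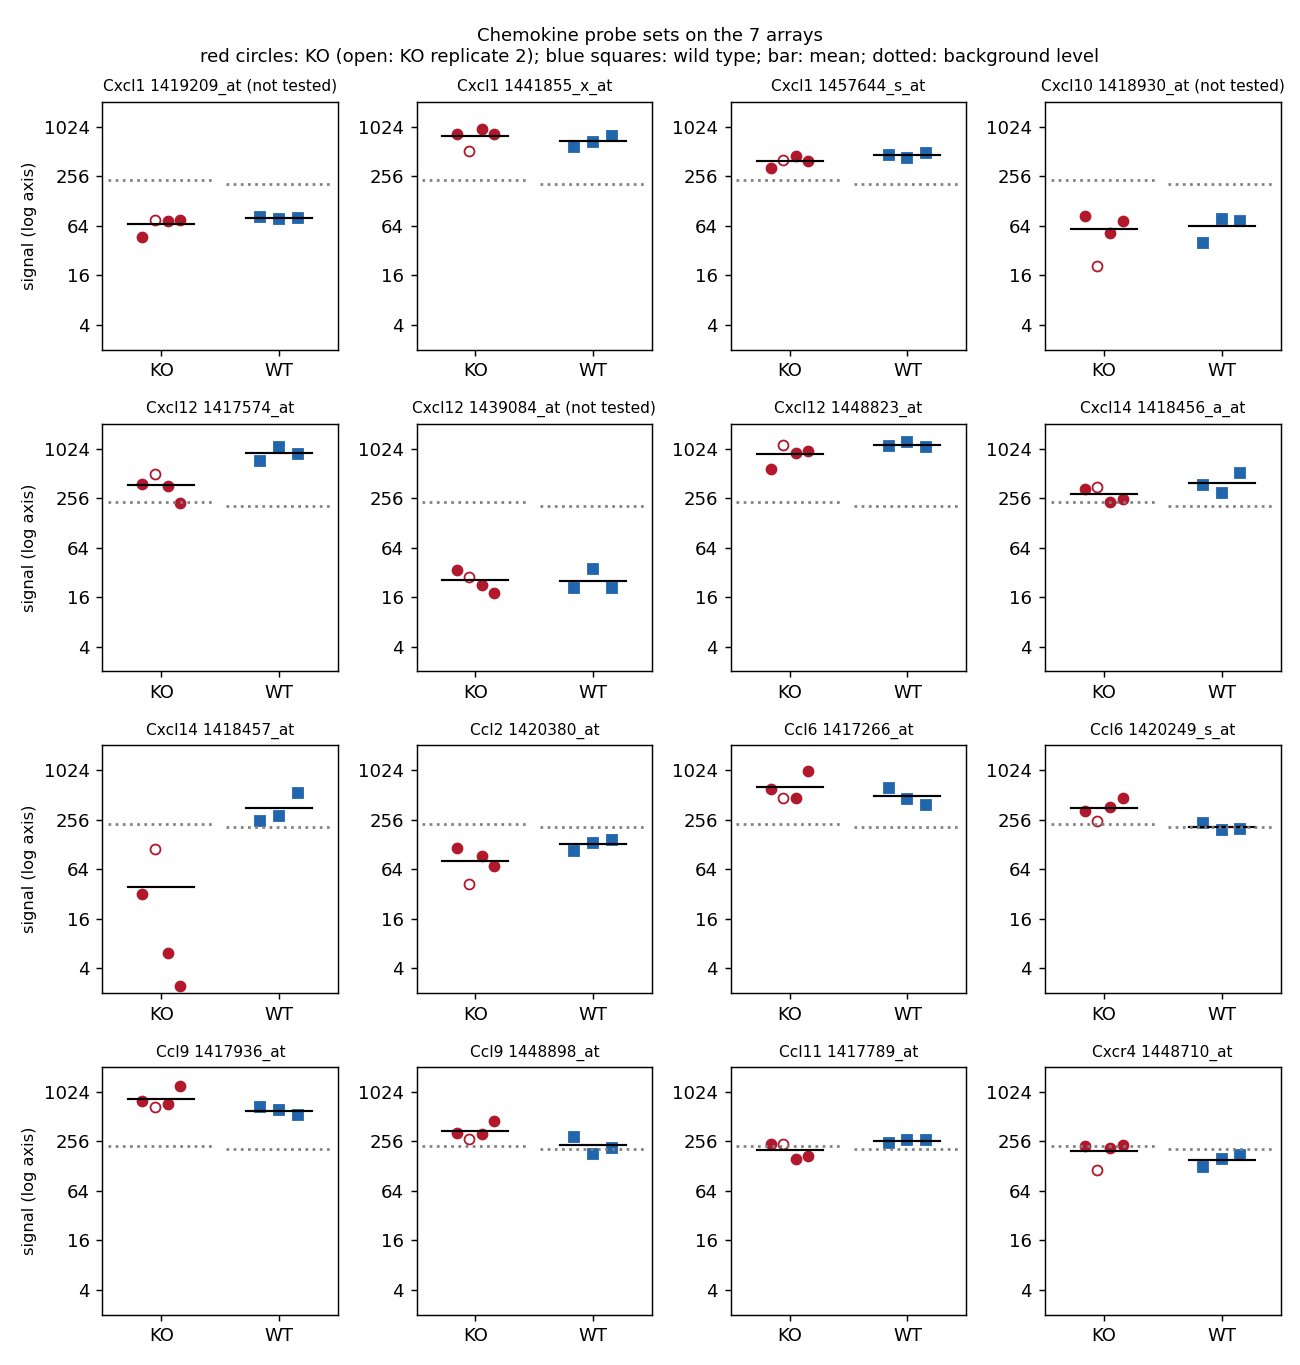
Signal (log axis) of each of the 16 chemokine probe sets on the KO arrays (red circles, open for KO replicate 2) and the wild-type arrays (blue squares), with group means as bars and the background level (228 in KO, 207 in wild type) dotted. Cxcl14 on 1418457_at and Cxcl12 on 1417574_at lie lower on every KO array than on every wild-type array, while Cxcl10 and Ccl2 stay under the dotted level throughout.

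Cxcl14 and Cxcl12 were the members with the largest differences, and both were lower in KO. Differences are given as log2(signal + 30.6) in KO minus wild type, from a linear model over all 27022 tested probe sets (limma, two-sided, Benjamini-Hochberg). Of the 13 tested chemokine probe sets, 2 were under an adjusted p of 0.05, both lower in KO. Of all tested probe sets 1.59% were under it, 0.644% lower and 0.951% higher in KO; nothing is read from the members' count, since these values chose them. With the array labelled KO replicate 2 left out, these 2 and 1 more, of Ccl6, were under it, while 7.35% of all tested probe sets were. The median log2 difference was -0.23 over the 13 and 0.00 over all tested probe sets.

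Cxcl14, an old and highly conserved chemokine made by fibroblasts, epithelia and, in rodents, brown adipocytes, read 32.0, 113.3, 6.1 and 2.4 on 1418457_at in KO replicates 1 to 4. The same probe set read 246.0, 281.2 and 538.5 in wild-type replicates 1, 3 and 4. The groups did not overlap, and every KO array lay under the background level, with the array labelled KO replicate 2 nearest to wild type. The log2 difference was -2.67 ± 0.48 (SE, adjusted p = 0.0298), and -3.11 with the array labelled KO replicate 2 left out. This probe set passed the filter on low signal narrowly (mean log2 value 6.99, filter 6.90) and through the wild-type arrays (mean 8.52, against 5.84 in KO). Given its low KO level, it could be tested only because the wild-type arrays were higher. A stricter filter, at the 60th percentile, leaves it untested. Since the KO signals are near background, the fold is a bound: with each KO signal set to no less than that array's background level, Cxcl14 was at least 1.62-fold lower in KO on this probe set.

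The other Cxcl14 probe set, 1418456_a_at, did not show a difference of that size. It averaged 290 ± 59.3 in KO (SD, n = 4) and 395 ± 113 in wild type (SD, n = 3), above background in each genotype, and the arrays overlapped. Its log2 difference was -0.40 ± 0.21 and was not under the threshold (adjusted p = 0.392). The 2 probe sets differ in the size of the difference, and where each lies on the transcript is not given in the files used here.

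Cxcl12, a homing signal made by stromal and vascular cells that retains haematopoietic cells and progenitors, read 376.8, 506.8, 354.9 and 222.9 on 1417574_at in KO replicates 1 to 4. In wild-type replicates 1, 3 and 4 it read 719.3, 1073.5 and 883.3. Here too the groups did not overlap and the array labelled KO replicate 2 was the highest of the KO arrays. The signal was 2.38-fold lower in KO (log2 difference -1.25 ± 0.23, adjusted p = 0.0338).

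A brighter Cxcl12 probe set gave a smaller difference. On 1448823_at the signal was 574.7, 1135.3, 896.0 and 944.2 in KO replicates 1 to 4 and 1096.5, 1237.8 and 1069.2 in wild-type replicates 1, 3 and 4. The array labelled KO replicate 2 lay inside the wild-type range and the other 3 KO arrays below it. The log2 difference was -0.38 ± 0.20 (adjusted p = 0.369), and -0.51 with the array labelled KO replicate 2 left out (adjusted p = 0.127). The third Cxcl12 probe set, 1439084_at, stayed near background in each genotype (18.0 to 33.8 in KO, 20.4 to 35.1 in wild type) and was not tested.

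Cxcl12 signals through Cxcr4 and is also bound by Ackr3, an atypical receptor that takes the ligand up and removes it. Ackr3 is not among the 9 genes and comes from a list of all other chemokine receptors. It fell 2.97-fold in KO (log2 difference -1.57 ± 0.30, adjusted p = 0.0342). Its signal was 662.2, 1331.8, 561.6 and 1018.5 in KO replicates 1 to 4, against 3022.9, 3302.1 and 1687.0 in wild-type replicates 1, 3 and 4, with no overlap. With the array labelled KO replicate 2 left out the difference was -1.78 (adjusted p = 0.00476), and within the second deposit block alone, with 2 arrays a group, it was -1.60 and not under the threshold (adjusted p = 0.0608). Leaving out any 1 of the other 6 arrays also ended the call (adjusted p up to 0.141).

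Cxcr4 itself read 222.4, 116.5, 211.7 and 228.5 in KO replicates 1 to 4 and 126.0, 158.1 and 175.2 in wild-type replicates 1, 3 and 4. Its group means were near background in each genotype. The array labelled KO replicate 2 was the lowest of all 7 and the other 3 KO arrays were the highest, so the groups overlapped through that array alone. The log2 difference was 0.27 ± 0.24 (adjusted p = 0.641), and 0.46 without it (adjusted p = 0.187).

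**Figure D2:**
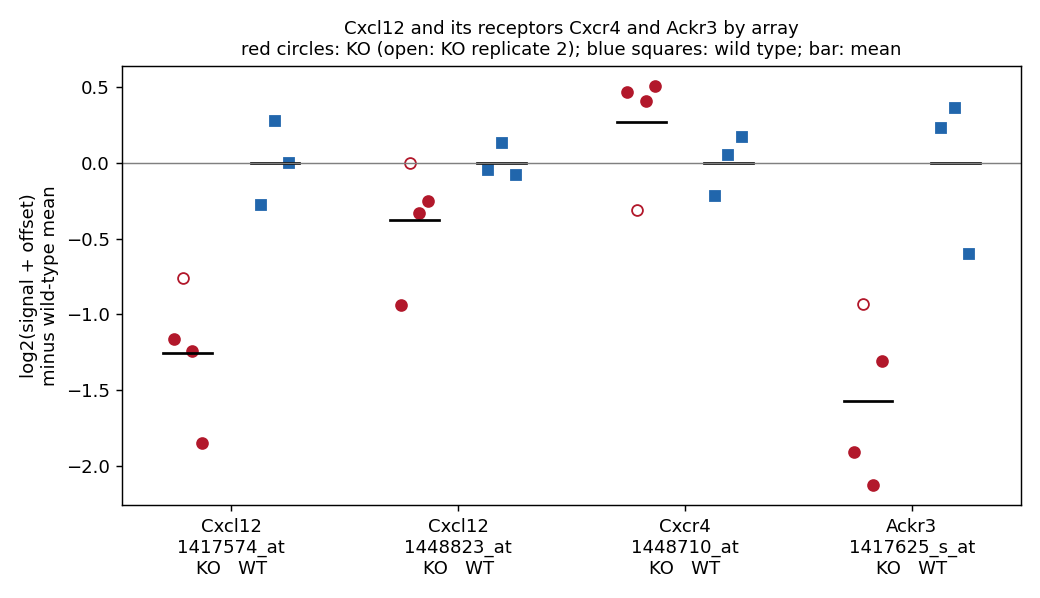
Values of log2(signal + 30.6) minus the wild-type mean for Cxcl12 (2 probe sets), Cxcr4 and Ackr3, for each KO array (red circles, open for KO replicate 2) and each wild-type array (blue squares), with means as bars. Cxcl12 on 1417574_at (-1.85 to -0.76) and Ackr3 (-2.13 to -0.93) lie lower on all 4 KO arrays than on any wild-type array, and Cxcr4 on 3 of the 4 KO arrays lies above them.

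Markers of the stromal and vascular cells that can make Cxcl12 were lower on some arrays too. Acta2, the actin of smooth muscle and pericytes, fell in KO (log2 difference -0.57 ± 0.11, adjusted p = 0.0393), 1 of 7 tested mural cell markers by the brightest probe set of a gene. Over all 13102 tested genes 1.83% passed this test, 18.2% had an unadjusted p under 0.05, as 2 of these 7 did, and 8.38% passed with the array labelled KO replicate 2 left out, as 2 of the 7 did. The Acta2 call was lost with median scaling (adjusted p = 0.0596) and on leaving out any 1 of the other 6 arrays (up to 0.154). The summed signal of these 7 weighs the brightest genes most. It lay between 10512 and 13894 on the KO arrays and between 15106 and 17496 on the wild-type arrays, without overlap. Weighing the 7 alike, the mean log2 value relative to wild type was -0.28, 0.02, -0.37 and -0.32 on KO replicates 1 to 4. On the wild-type arrays this mean was -0.07 to 0.07, so it overlapped through the array labelled KO replicate 2. Rgs5, a pericyte marker, averaged 5341 in KO and 8495 in wild type (adjusted p = 0.0593).

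Of 10 tested fibroblast and preadipocyte markers 0 passed (limma, 4 at an unadjusted p under 0.05, where 18.2% of all genes were). With the array labelled KO replicate 2 left out, Lum, Fap, Dpt and Cd34 fell, where 8.38% of all genes passed. Their summed signal was 40972 to 67324 on the KO arrays and 64029 to 74147 on the wild-type arrays, lowest on KO replicate 1. Fap, a protease of activated fibroblasts, averaged 356 in KO and 703 in wild type (adjusted p = 0.0982). Of 11 tested endothelial markers 0 changed (4 at an unadjusted p under 0.05), with summed signals of 14444 to 15735 in KO and 15163 to 18072 in wild type. None of the endothelial or fibroblast markers was near background in both genotypes, and of the mural cell markers only Myh11 was. The part of these cell types in the Cxcl12, Cxcl14 and Ackr3 differences was not tested.

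The bases before the start sites of the 3 genes that were lower in KO are shown because Cxcl14, Cxcl12 and Ackr3 moved in the same direction. The sequences are RefSeq's on GRCm38.p6, 250 bases up to the start site, 5′ to 3′ on the gene's strand. Cxcl14 is at chr13:56296552-56296801 (minus strand), Cxcl12 at chr6:117168285-117168534 (plus strand) and Ackr3 at chr1:90203730-90203979 (plus strand). Capitals mark matches, on either strand, to any of 6 motifs: the GC box GGGCGG, the TATA box TATAAA, the hypoxia response element ACGTG, an NF-kB site (GGG, 2 free bases, TT, 1 free base, CC), a glucocorticoid receptor site (G, 1 free base, ACA, 3 free bases, TGT, 1 free base, C) and an interferon-stimulated response element (GAAA, 2 free bases, GAAA).
Cxcl14: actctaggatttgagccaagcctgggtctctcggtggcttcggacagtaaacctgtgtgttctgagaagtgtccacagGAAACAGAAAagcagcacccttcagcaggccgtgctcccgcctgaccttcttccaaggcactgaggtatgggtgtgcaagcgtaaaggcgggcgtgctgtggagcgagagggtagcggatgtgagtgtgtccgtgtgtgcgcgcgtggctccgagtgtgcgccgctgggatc
Cxcl12: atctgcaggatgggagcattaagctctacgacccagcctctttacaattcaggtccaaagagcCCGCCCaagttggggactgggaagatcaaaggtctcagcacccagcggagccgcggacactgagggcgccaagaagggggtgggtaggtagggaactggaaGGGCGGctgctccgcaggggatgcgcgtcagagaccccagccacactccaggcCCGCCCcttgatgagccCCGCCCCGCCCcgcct
Ackr3: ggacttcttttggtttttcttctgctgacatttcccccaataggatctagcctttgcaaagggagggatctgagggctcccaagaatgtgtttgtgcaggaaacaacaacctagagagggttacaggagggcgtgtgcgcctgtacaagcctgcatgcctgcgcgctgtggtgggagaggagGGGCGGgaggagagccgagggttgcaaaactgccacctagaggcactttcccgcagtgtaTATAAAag

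Among these motifs, Cxcl12 holds 5 GC boxes, of which the last 2 share 1 base, and Ackr3 holds 1 GC box and 1 TATA box. A GC box lies in 32.7% of all 32851 such windows and a TATA box in 12.4%. Cxcl14 holds 1 match to the interferon-stimulated response element, found in 2.98% of windows. The glucocorticoid receptor letters, in 0.387% of windows, were in none of the 3. A match is a run of letters and not a bound site.

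Ccl6 and Ccl9, CC chemokines of myeloid cells in mice, read higher in KO on average, but their differences were not under the threshold with all arrays. Both genes lie on chromosome 11 with 1 noncoding gene and 0 protein-coding genes between them. On 1420249_s_at, Ccl6 read 327.7, 247.3, 368.8 and 468.9 in KO replicates 1 to 4 and 233.4, 192.3 and 195.6 in wild-type replicates 1, 3 and 4. Every KO array was above every wild-type array, as in 7.48% of all tested probe sets, and the wild-type mean (207) lay just under the background level. The log2 difference was 0.66 ± 0.20 (adjusted p = 0.133), and 0.81 with the array labelled KO replicate 2 left out (adjusted p = 0.0247).

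The brighter Ccl6 probe set overlapped between the genotypes. On 1417266_at the signal was 609.8, 463.9, 464.7 and 1015.3 in KO replicates 1 to 4, against 620.8, 460.8 and 391.7 in wild-type replicates 1, 3 and 4, a log2 difference of 0.31 ± 0.26 (adjusted p = 0.616). KO replicate 4 alone stood above the wild-type range. Both probe sets averaged higher in KO, with 4 KO arrays above the wild-type range on one and 1 on the other.

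Ccl9, which draws dendritic cells and osteoclast precursors, read 785.2, 661.7, 733.7 and 1209.4 on 1417936_at in KO replicates 1 to 4. In wild-type replicates 1, 3 and 4 it read 669.0, 613.9 and 541.5, and the array labelled KO replicate 2 fell inside that range. The log2 difference was 0.43 ± 0.19 (adjusted p = 0.296). On 1448898_at it averaged 341 ± 76.6 in KO (SD, n = 4) and 229 ± 58.1 in wild type (SD, n = 3), a log2 difference of 0.52 ± 0.21 (adjusted p = 0.239), again with overlap. On all 4 probe sets of Ccl6 and Ccl9, KO replicate 4 was the highest of the 7 arrays.

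The means of the neutrophil and macrophage marker lists were also highest on that array. Not every marker was, as Mertk read 638.0 on KO replicate 3 and 547.2 on KO replicate 4. Chil3, a chitinase-like protein of neutrophils and activated macrophages, rose in KO (log2 difference 2.09 ± 0.39, adjusted p = 0.034), 1 of 10 tested neutrophil markers, where 1.83% of all genes passed. Its wild-type signals (51.0 to 141.7) were under the background level of 207, so the size of the rise is uncertain. The array labelled KO replicate 2 (205.7) was also under its level of 228. Of the 10, 5 had an unadjusted p under 0.05 (18.2% of all genes). Ngp and Lcn2, granule proteins, rose as well with the deposit block in the model (3 of 10, where 2.61% of all genes passed) and with the array labelled KO replicate 2 left out (3 of 10, where 8.38% did). In the second deposit block alone, with 2 arrays a group, 6 of 10 rose, where 726 of all 27022 tested probe sets passed. Leaving out any 1 of the other 6 arrays ended the Chil3 call (adjusted p up to 0.131). The mean log2 value of these 10, relative to wild type, was 0.60, 0.51, 0.91 and 1.15 on KO replicates 1 to 4 and 0.22, -0.11 and -0.10 on wild-type replicates 1, 3 and 4. Their summed signal was 7028 to 11973 in KO and 4910 to 7342 in wild type. The defining genes Elane and Csf3r were near background in both genotypes.

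Of 12 tested macrophage markers 0 passed (limma, 3 at an unadjusted p under 0.05, where 18.2% of all genes were). Mertk and Lyz2 rose with the array labelled KO replicate 2 left out, where 8.38% of all genes passed, and Lyz2 in the second deposit block alone. Their mean relative to wild type was -0.17, 0.07, 0.19 and 0.38 on KO replicates 1 to 4, and -0.08 to 0.07 on the wild-type arrays. The summed signal was 11312 to 18292 in KO and 13122 to 14270 in wild type, and Itgam and Aif1 were near background in both genotypes. The part of myeloid cell number in the Ccl6 and Ccl9 values was not tested.

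**Figure D3:**
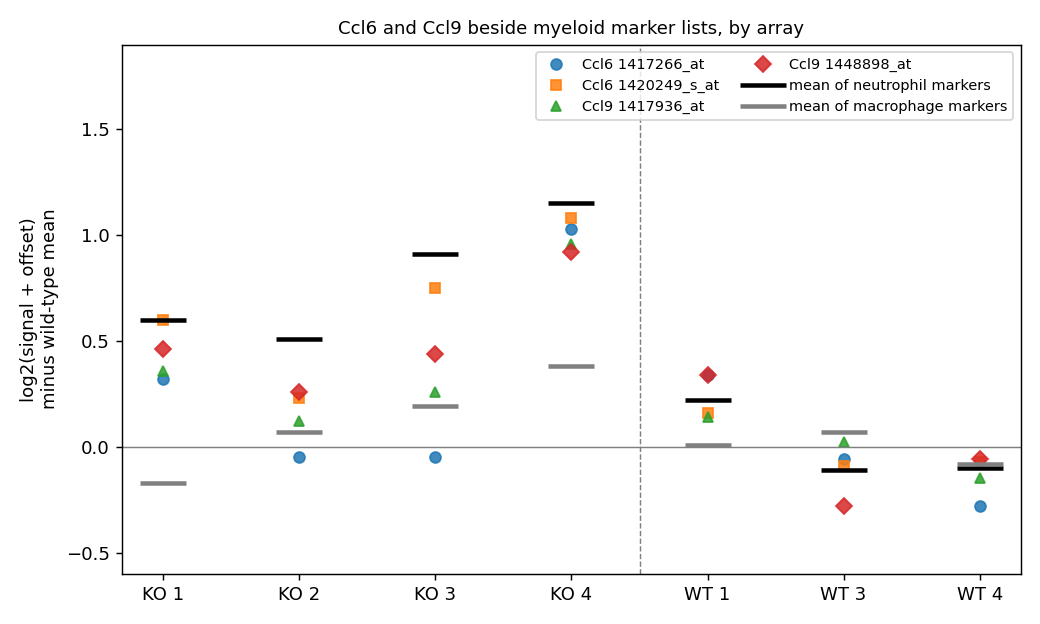
Values of log2(signal + 30.6) minus the wild-type mean for the 4 probe sets of Ccl6 and Ccl9 (symbols) and for the means of the neutrophil (black bars) and macrophage (grey bars) marker lists, on the KO arrays (left) and wild-type arrays (right). All 4 probe sets (0.92 to 1.08) and both lists (1.15 and 0.38) are highest on KO replicate 4.

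The promoters of these neighbouring genes are shown in the same way, since the genes are close in place and read in the same direction. Ccl6 is at chr11:83593088-83593337 and Ccl9 at chr11:83578637-83578886, both on the minus strand of GRCm38.p6.
Ccl6: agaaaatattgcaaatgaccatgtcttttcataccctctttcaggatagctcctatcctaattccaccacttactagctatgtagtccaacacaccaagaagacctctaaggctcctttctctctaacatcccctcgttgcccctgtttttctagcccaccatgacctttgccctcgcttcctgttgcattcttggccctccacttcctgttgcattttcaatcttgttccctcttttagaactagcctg
Ccl9: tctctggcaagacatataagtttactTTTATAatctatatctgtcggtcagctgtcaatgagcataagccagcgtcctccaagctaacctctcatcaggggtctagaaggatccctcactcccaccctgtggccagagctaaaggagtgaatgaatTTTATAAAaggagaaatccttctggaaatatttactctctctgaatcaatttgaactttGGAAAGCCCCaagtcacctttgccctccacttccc

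Ccl6 holds 0 matches to the 6 motifs. Ccl9 holds 3 TATA box matches, of which 2 overlap on opposite strands, and 1 NF-kB match. The NF-kB letters are in 4.11% of all windows. Of the 9 genes, 7 had a promoter in the table. Of the members not printed, Cxcl1 holds 2 NF-kB matches and 1 hypoxia response element, Cxcl10 holds 1 NF-kB match and 1 interferon-stimulated response element, and Cxcr4 holds 3 GC boxes and 2 overlapping TATA boxes.

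The inflammatory ligands were low or gave no clear direction. Cxcl10, which interferon induces and which draws activated T cells, stayed near background on its 1 probe set, at 20.7 to 84.7 in KO and 39.1 to 76.8 in wild type, and was not tested. Ccl2, the monocyte attractant, also stayed near background, at 114.8, 42.0, 93.5 and 69.9 in KO replicates 1 to 4 and 107.4, 133.3 and 145.5 in wild-type replicates 1, 3 and 4. Only KO replicate 1 reached the wild-type range, and the log2 difference was -0.57 ± 0.27 (adjusted p = 0.34). It too passed the filter through the wild-type arrays (mean log2 value 7.31, against 6.74 in KO).

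Ccl11, or eotaxin, which draws eosinophils, read 241.2, 235.7, 155.4 and 168.7 in KO replicates 1 to 4 and 244.6, 265.9 and 269.1 in wild-type replicates 1, 3 and 4. The groups did not overlap, though KO replicate 1 and wild-type replicate 1 lay close together. The arrays were lower in KO without overlap in 3 of the 13 tested chemokine probe sets (Cxcl12, Cxcl14 and Ccl11, on 1 probe set each) and in 7.25% of all tested probe sets. The KO mean of Ccl11 was near background, the log2 difference was -0.35 ± 0.19 and it was not under the threshold (adjusted p = 0.395). Against the background level it was at least 1.09-fold lower in KO. The eosinophil genes Siglecf, Epx and Prg2 were near background in both genotypes.

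Cxcl1, a neutrophil attractant, had 3 probe sets that did not move together. Its probe set 1419209_at stayed near background (46.3 to 76.2 in KO, 77.9 to 81.7 in wild type) and was not tested. The other 2 belong to types whose probes can match further transcripts, as their suffixes show. On 1441855_x_at the signal averaged 789 ± 190 in KO (SD, n = 4) and 686 ± 110 in wild type (SD, n = 3), a log2 difference of 0.17 ± 0.20 (adjusted p = 0.735). On 1457644_s_at it averaged 393 ± 51.6 in KO and 465 ± 32.8 in wild type, a difference of -0.23 ± 0.15 (adjusted p = 0.488). The direction for Cxcl1 thus differed by probe set. The limit given by the suffixes holds as well for 1417625_s_at of Ackr3, 1420249_s_at of Ccl6, 1416454_s_at of Acta2, 1449731_s_at of Nfkbia and 1437669_x_at of Ackr4. The same limit holds for 1434450_s_at of Grk3.

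The rest of the family gave few differences. Of 30 other chemokine ligands, 27 had a probe set of their own and 19 of these were near background in both genotypes on every probe set. Taking each gene by its brightest probe set, 0 of 16 tested ligands passed (limma, 0 at an unadjusted p under 0.05). Of all tested genes 1.83% did, 1.12% higher and 0.71% lower in KO, and for the ligands the median log2 difference was -0.02, against -0.01 over all genes. Pf4, a platelet and megakaryocyte chemokine, was above background but had overlapping values (2647 to 5032 in KO, 3594 to 4671 in wild type, adjusted p = 0.894). Cxcl13, which draws B cells, averaged 349 in KO and 256 in wild type on 1448859_at (adjusted p = 0.366). Its probe set 1417851_at was near background in both genotypes and not tested (log2 difference -0.32). Ccl25, Ccl24 and Ccl4, the others with the smallest p, had log2 differences of 0.74, -0.37 and 0.26 (adjusted p = 0.436, 0.503 and 0.517). Ccl25 and Ccl24 were near background in both genotypes. Ccl25 read 183.6, 19.1 and 108.7 on wild-type replicates 1, 3 and 4.

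Of 22 other receptors, 20 had a probe set of their own and 14 were near background in both genotypes. Among 13 tested receptors Ackr3 fell and 0 rose (limma, 2 at an unadjusted p under 0.05), with a median log2 difference of 0.01. Of all tested genes 0.71% fell and 1.12% rose, and 18.2% had an unadjusted p under 0.05. Ackr4, an atypical receptor that clears CC chemokines such as Ccl19 and Ccl21, was near background in each genotype. On 2 of its 3 probe sets it read higher on every KO array than on any wild-type array, as in 7.48% of all tested probe sets. The third, 1426139_a_at, overlapped (log2 difference 0.06) and was not tested. On 1437669_x_at Ackr4 read 168.2, 90.8, 124.8 and 145.9 in KO replicates 1 to 4, against 58.8, 38.1 and 78.5 in wild-type replicates 1, 3 and 4 (log2 difference 0.87 ± 0.26, adjusted p = 0.129). Ackr1, the scavenger of venular endothelium and red cells, had a log2 difference of 0.05 and overlapping values (356.0 to 509.1 in KO, 385.2 to 501.6 in wild type). Ccr4 and Ccrl2 had log2 differences of 0.67 and 0.50 (adjusted p = 0.371 and 0.374). Ccr4 was near background in both genotypes and Ccrl2 in wild type.

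**Figure D4:**
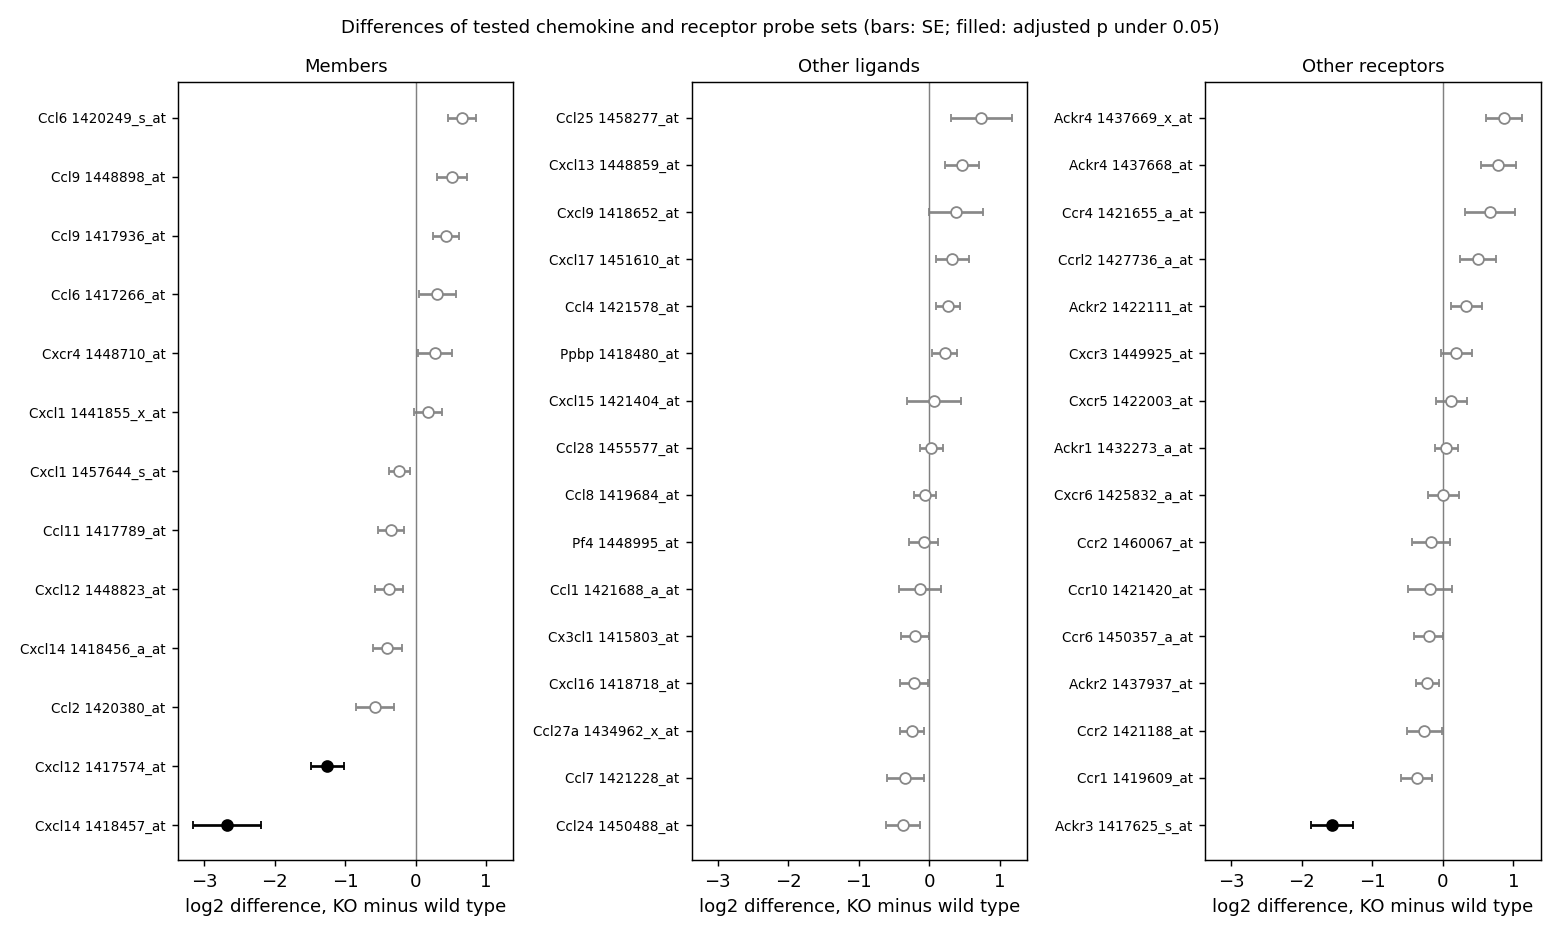
Log2 differences (KO minus wild type, bars SE) of the 13 tested probe sets of the 9 genes, of the other tested ligands and of the other tested receptors, with filled points for an adjusted p under 0.05. Cxcl14 (-2.67), Cxcl12 (-1.25) and Ackr3 (-1.57), on 1 probe set each, are the filled points, and all lie left of 0.

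Among genes that carry or limit chemokine signals inside the cell, calls depended on the model. Of 15 tested genes of receptor signalling and turnover 0 passed with all arrays and no covariate (limma). At an unadjusted p under 0.05 there were 5, where 18.2% of all genes were. With the array labelled KO replicate 2 left out Grk5 and Rgs2 rose and Grk3 fell, where 8.38% of all genes passed. Grk3 and Grk5 are kinases that switch off activated receptors. On 1439178_at and 1449514_at they averaged 285 and 1455 in KO and 476 and 913 in wild type (adjusted p = 0.0637 and 0.0655). On its brightest probe set, 1434450_s_at, Grk3 averaged 1466 in KO and 2451 in wild type (adjusted p = 0.0721). Rgs2, which shortens G protein signals, averaged 6511 in KO and 3250 in wild type on 1419247_at (log2 difference 0.94, adjusted p = 0.0732). Rgs2 rose with the deposit block in the model (1.02, adjusted p = 0.0331), where 2.61% of all genes passed. In the second deposit block alone, with 2 arrays a group, Rgs2 rose (1.26, adjusted p = 0.0106). There Grk3 fell on its brightest probe set (adjusted p = 0.0303), and 726 of all 27022 tested probe sets passed.

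Among 12 tested NF-kB and inflammatory targets, which include known inducers and partners of chemokine genes, 0 passed by the brightest probe set (limma). At an unadjusted p under 0.05 there was 1, where 18.2% of all genes were. Nfkbia is the inhibitor that holds NF-kB in the cytoplasm and that glucocorticoids also induce. On its brightest probe set, 1420088_at, Nfkbia averaged 11777 in KO and 7254 in wild type, without overlap (log2 difference 0.68, adjusted p = 0.0672). With the array labelled KO replicate 2 left out this probe set passed (adjusted p = 0.00693), where 8.38% of all genes did. Nfkbia rose on 2 other probe sets with all arrays (log2 differences 0.89 ± 0.15 and 0.81 ± 0.15, adjusted p = 0.0277 and 0.0342). Leaving out any 1 array but that labelled KO replicate 2 ended both calls (adjusted p up to 0.111 and 0.135). On 1449731_s_at it read 3442, 2257, 2426 and 3306 in KO replicates 1 to 4 and 1545, 1497 and 1464 in wild-type replicates 1, 3 and 4, without overlap. Il6, Tnf, Il1b, Ptgs2, Sele, Saa3, Relb, Csf2 and Csf3 were near background in both genotypes. Nfkbiz and Tnfaip3, both NF-kB targets, had log2 differences of 0.29 and 0.39 (adjusted p = 0.308 and 0.327). Of 14 tested interferon-inducible genes 0 passed (limma, 0 at an unadjusted p under 0.05), with a median of -0.14. The smallest p among them was that of the immunoproteasome gene Psmb8 (log2 difference -0.44, adjusted p = 0.391), followed by Usp18 and Igtp (-0.31 and -0.37).

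No marker of the other immune cell types tested passed the threshold. Of the tested markers of T cells (1), B cells (4), and mast cells and eosinophils (6), 0 passed (limma, 0, 0 and 2 at an unadjusted p under 0.05), and Cd3d, Cd3e, Cd3g and Cd4 were near background in both genotypes. Cd8a, the single T cell marker tested, read 318 to 495 on its brightest probe set in KO and 294 to 456 in wild type. The B cell sum was 781 to 996 in KO and 828 to 1022 in wild type. The mast cell and eosinophil sum, which weighs the brightest genes most, was 5347 to 9483 in KO and 9918 to 11658 in wild type, without overlap. Weighing these 6 genes alike, the mean log2 value relative to wild type did overlap, at -0.69 to -0.03 in KO and -0.13 to 0.18 in wild type. The mast cell protease gene Cma1 averaged 2712 in KO and 3846 in wild type (adjusted p = 0.135). Among 10 tested brown adipocyte markers 0 changed by the brightest probe set, while Fabp4 rose on 1 other (log2 difference 0.48, adjusted p = 0.0403), and 0 of 4 erythroid and 0 of 8 skeletal muscle markers changed (0 in each list at an unadjusted p under 0.05).

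By the profile over the 7 arrays, the 5 genes most like Cxcl14 on 1418457_at were Fndc5, A530016L24Rik, Ccnd1, Mcm3 and Neat1. The root mean square distance, between log2 values each less its own mean, was 0.47, 0.50, 0.54, 0.58 and 0.61. Fndc5, the precursor of the secreted peptide irisin, read 198.8, 448.2, 90.0 and 82.2 in KO replicates 1 to 4 and 1030.2, 821.3 and 757.5 in wild-type replicates 1, 3 and 4. In all 5 the array labelled KO replicate 2 was the highest of the KO arrays, as it was for Cxcl14. The likeness is a description over arrays of 2 genotypes, and nothing is read from it.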

How the data were processed

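The deposited values are signal intensities on a linear scale, 1 per probe set and array, made with GCOS 1.2 per the submitters' processing notes. For the scaling, a step by the authors, details are not given in the sources used here. After trimming 2% at each end, the mean was 500.003 on all 7 arrays, and these values were kept. Of 45101 probe sets, 64 controls were left out. Probe sets with 1 symbol (34945) were named through a probe table, updated with RefSeq gene identifiers (GRCm38.p6). Before the log2 step 30.6, the 20th percentile of the deposited signals, was added. The 40% of probe sets with the lowest mean were then left out. KO and wild type were compared by moderated linear models (limma 3.58.1, R 4.3.3) with no covariate and a mean-variance trend, adjusted by Benjamini-Hochberg over 27022 probe sets. The fit was tested on simulated data. The members and gene lists were chosen with earlier results of these data known. The genes named were all members, the family members with the smallest p or past the threshold, up to 3 genes of other lists by smallest p with those past the threshold, and the 5 profiles nearest to Cxcl14. List counts use the brightest tested probe set of each gene. The marker lists covered macrophages, neutrophils, T cells, B cells, mast cells and eosinophils, endothelium, fibroblasts, mural cells, brown adipocytes, erythroid cells and skeletal muscle. Alternatives were quantile and median scaling, other offsets and filters, no mean-variance trend, robust moderation, the replicate number or the deposit block in the model, the second deposit block alone, and leaving out each array in turn.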

Additional observations from a re-analysis of the deposited data

Results flagged for a closer look

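Cxcr4 read 116.5 on the array labelled KO replicate 2, against 211.7 to 228.5 on the other 3 KO arrays. The gap between this array and the next was 0.85 of the whole range of the 4 KO arrays, above Dixon's 95% critical value for 4 samples. Cxcl1 on 1419209_at, a probe set near background in both genotypes, read 46.3 on KO replicate 1 and 73.6 to 76.2 on the other 3 KO arrays, a gap of 0.913 of the range. These were 2 of 22 probe sets examined, the 16 of the 9 chemokine genes and the 6 further ones past the threshold in the gene lists. The critical value is set so that about 5% of groups pass by chance.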

How the results depend on the processing

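Direction held for all 13 chemokine probe sets and for Ackr3 under every alternative in which they were tested, of 18 run. Calls did not. Over all tested probe sets 431 passed, against 236 with median scaling, 100 without the filter, 6 without the mean-variance trend, 726 in the second deposit block alone and 7 to 1986 when 1 array was left out. The member probe sets past the threshold numbered 2, against 0 without the filter or the trend (limma, 5 and 5 at an unadjusted p under 0.05), 1 with the stricter filter, which drops Cxcl14, and 0 to 3 without 1 array. Among other ligands and receptors 1 gene passed, Ackr3, against 0 without the filter, without the trend or in the second block alone (6, 2 and 4 at an unadjusted p under 0.05), and 0 to 1 without 1 array. Over all probe sets, 5503 of 45037 had an unadjusted p under 0.05 without the filter. Of 27022, 4096 had one without the trend and 5032 in the second block alone. Leaving out any array but KO replicate 2 ended the calls of Cxcl12, Cxcl14 and Ackr3. For Cxcl12 on 1417574_at the log2 difference stayed between -1.68 and -1.05 (adjusted p = 0.00456 to 0.136), for Cxcl14 on 1418457_at between -3.60 and -1.78 (adjusted p = 0.00138 to 0.131) and for Ackr3 between -1.87 and -1.38 (adjusted p = 0.00476 to 0.141). The causes of these shifts were not tested. The same alternatives for Ackr3, Acta2, Chil3, Fabp4 and Nfkbia were added after seeing the data, as were the list counts by deposit block. Direction held in all 18 for each. Chil3 and Nfkbia on 1449731_s_at passed in 10 of 18, and Acta2, Fabp4 and Nfkbia on 1448306_at in 9, the last 3 being lost with median scaling too (adjusted p = 0.0596, 0.0885 and 0.0545). All were lost without the filter, without the trend and without any array but KO replicate 2. With the replicate number as a block 2183 probe sets passed, Ccl6 on 1420249_s_at among them (adjusted p = 0.0377), but that fit gives KO replicate 2 no weight. Deviations of arrays with the same number correlated at 0.057, 0.149 and 0.105, and the labels do not say that a number marks a shared litter or day, so the numbers were not taken as pairs.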
